A study of Mus musculus with 12 samples.

Results

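Macrophage and monocyte genes were followed in sorted splenic B cells of 2 Foxp1 genotypes. The group was fixed as the 9 genes Csf1r, Adgre1, Vcam1, F13a1, C1qa, C1qb, C1qc, Cd68 and Lyz2. Every probe set that the array annotation gives to 1 of these genes alone was taken, which made 15 of the 45101 probe sets on the array, for 9 of 18193 annotated genes. The genes were chosen with earlier results of these data known.

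The 12 arrays (1-colour Affymetrix arrays hybridised with biotinylated cRNA) held 4 groups of 3. Cells carrying B220, a surface protein of most B cells, were sorted from spleens of mice with a mixed 129/Sv-C57BL/6 background. The genotype called deleted here was Foxp1flox/del, with 1 conditional and 1 deleted allele, and the control was Foxp1wt/flox, with 1 wild-type and 1 conditional allele, so that all groups carried a floxed allele. Cells of each genotype were kept for 4 h unstimulated or with IgM, a reagent not described further. Nothing in the labels says how or whether the floxed allele was recombined, how old the mice were or whether replicates came from separate animals, so p-values measure the spread between these arrays, which may be technical.

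Macrophages and monocytes are phagocytes of the myeloid lineage. The receptor CSF1R receives the growth factors CSF1 and IL-34 and maintains these cells. Resident macrophages make the C1q complement proteins and carry the surface receptor ADGRE1, whereas blood monocytes are rich in factor XIII A and lysozyme M, and most splenic B cells make few of these proteins.

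The values were log2 expression levels made with GCRMA, a method that corrects background from probe sequence and leaves probe sets without signal at low values. The lowest value on the arrays, 2.23, is called the floor here. Single probe sets can bottom out above it, as F13a1, which repeated the value 2.60 on several control arrays. A probe set was tested when it lay above 4 on at least 3 arrays. Probe sets of different genes are not comparable in level, so levels were compared only between arrays. Arrays give no count of reads, and precision rests on 3 arrays a group. Below, a blocked adjusted p is the adjusted p of the same limma model with the replicate number added as a block.

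Facts of the whole series bear on what follows. None of the 8 probe sets of Foxp1 passed the test between genotypes (limma, log2 differences of -0.29 to 0.13 in unstimulated and -0.30 to 0.32 in IgM cells, 0 of 8 at an unadjusted p under 0.05 or with the replicate number as a block). Its probe set with the highest signal read 12.27, 13.14 and 13.30 in unstimulated control replicates 1 to 3 and 12.26, 13.16 and 13.20 in deleted ones, and with IgM 12.08, 12.91 and 13.06 against 12.15, 12.74 and 13.06. Whether any Foxp1 probe set falls inside the deleted sequence is not given in the sources used here, so they do not check the labels. Deleted IgM replicate 3 stood apart: it correlated at 0.837 and 0.884 with its group mates across tested probe sets, against 0.948 or more for all other pairs within groups, and had the lowest mean level of the poly-A control RNAs (6.94 against 8.05 to 10.73). Most genotype results of the 9 genes are therefore also given without that array. Results of all other genes and lists include it and are not given without it. Xist, the RNA of the inactive X chromosome, read 2.48 to 3.09 on the 4 replicate 1 arrays and 8.67 to 11.75 on the other 8, so replicate 1 differed from the others in all 4 groups alike. All 9 measured pan-B markers passed the filter, and Cd79a, a signalling chain of the B cell receptor, lay at 9.03 to 14.51 and Ms4a1, which encodes CD20, at 12.44 to 13.96 on the 12 arrays. The summed linear level of these 9 markers ranged from 79578 to 82202 in unstimulated control, 74795 to 79498 in unstimulated deleted, 32255 to 36511 in control IgM and 36817 to 42631 in deleted IgM arrays.

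Of the 15 probe sets, 8 passed the filter, and they read 6 of the 9 genes: Csf1r with 3, and Adgre1, Vcam1, F13a1, Cd68 and Lyz2 with 1 each. The other 7 read C1qa, C1qb and C1qc (5 probe sets) and Vcam1 (2). The filter took any 3 arrays, so a probe set could pass through deleted arrays alone. Fewer than 3 control arrays were above 4 for 4 of the 8, which reached the filter through deleted arrays: 1448162_at of Vcam1 and 1419873_s_at of Csf1r (0 control and 5 deleted arrays each), F13a1 (1 and 6) and 1419872_at of Csf1r (2 and 6). The filter favoured a difference in these 4, and counts and medians over the 8 are given as descriptions and support nothing.

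**Figure D1:**
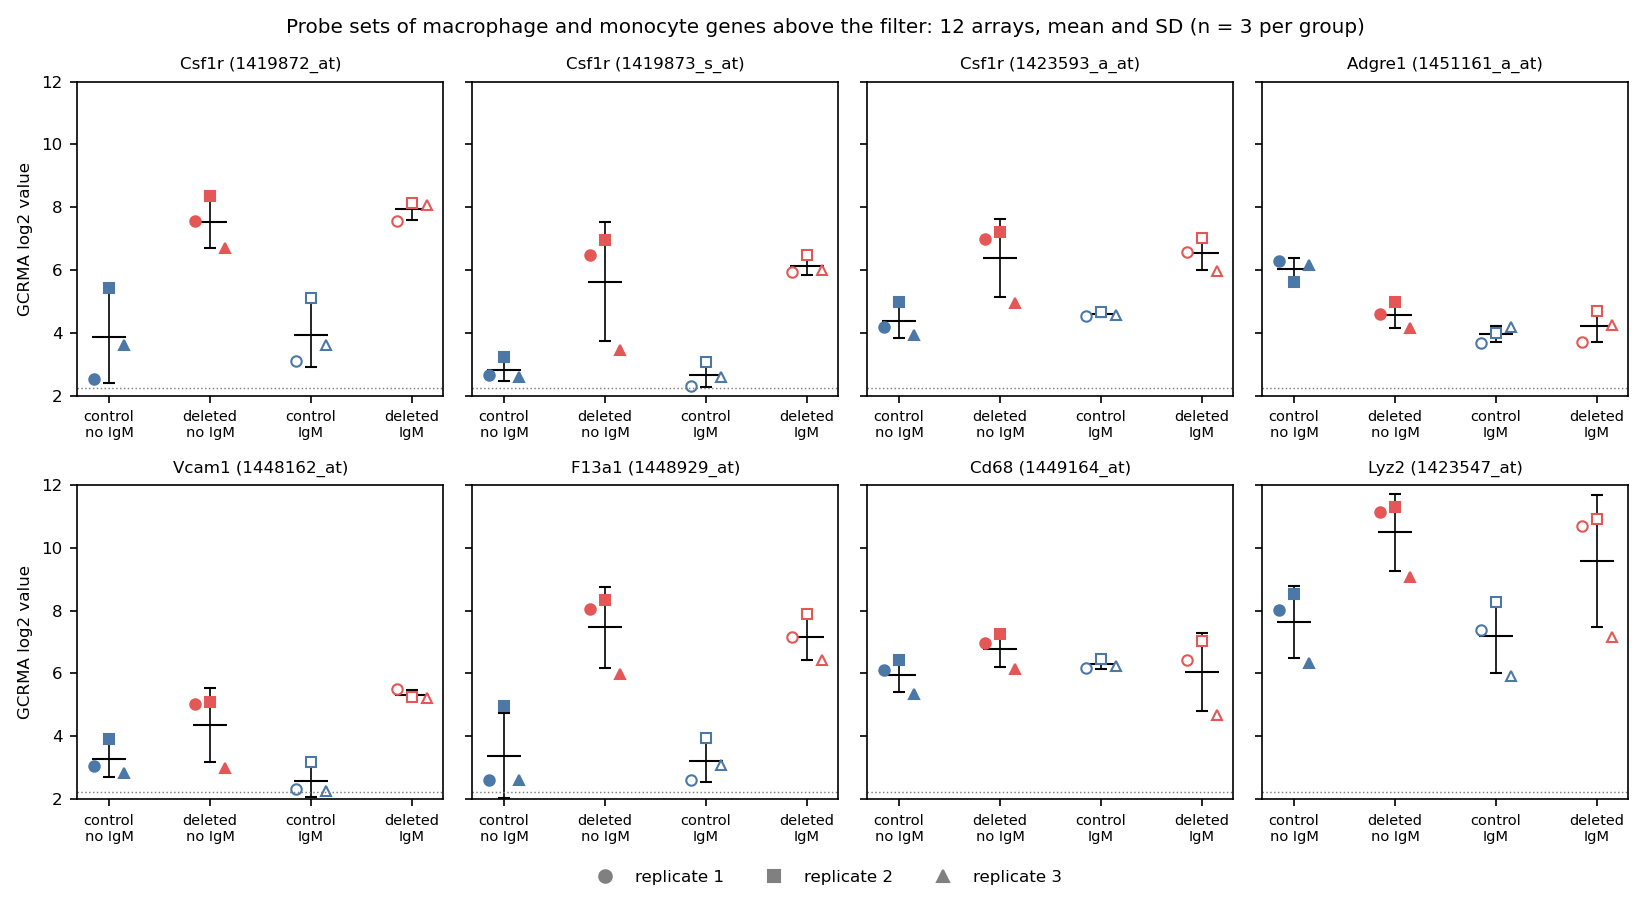
GCRMA log2 value (vertical axis) of the 8 probe sets that passed the filter, 1 panel each, in the 4 groups, with each array as a point whose shape gives the replicate number, and the mean ± SD (n = 3) as bars. The dotted line is the array floor of 2.23. Deleted arrays (red) of Csf1r probe set 1419872_at and of F13a1 lie above all control arrays (blue) in both conditions, whereas those of Adgre1 lie below them only without IgM.

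Csf1r, the receptor gene, had higher means in deleted than in control cells in both conditions. Its probe set 1419872_at read 2.54, 5.42 and 3.60 in unstimulated control replicates 1, 2 and 3, and 7.57, 8.36 and 6.69 in unstimulated deleted ones. With IgM the control arrays read 3.10, 5.10 and 3.61 and the deleted arrays 7.55, 8.14 and 8.08. The highest control array was thus below the lowest deleted array in either condition, and replicate 2 was the highest control array in both. Over all tested probe sets 8.03% were higher without overlap in unstimulated cells and 10.2% with IgM. The log2 difference was 3.69 ± 0.72 (SE, n = 3 per group; limma adjusted p = 0.0245, Benjamini-Hochberg) without IgM, or 12.9-fold, and 3.99 ± 0.72 (SE, n = 3 per group; limma adjusted p = 0.0256) with it. This probe set reached the filter through deleted arrays, which favoured a higher value in them. With control arrays as low as 2.54 the size of the rise is not exact. Without deleted IgM replicate 3 the differences were 3.69 and 3.91 (limma adjusted p = 0.0281 and 0.0670). Apart from that array, the call without IgM was lost without deleted unstimulated replicate 1 or 2 (limma adjusted p = 0.0943 and 0.112) or control unstimulated replicate 1 or 3 (0.0983 and 0.107), and the call with IgM without deleted IgM replicate 2 (0.0789) or control IgM replicate 1 or 3 (0.118 and 0.131).

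In bulk samples, fewer cells of a type and less RNA per cell cannot be told apart, which holds for every result here. The other 2 probe sets of Csf1r also had higher means in deleted cells. Of these, 1419873_s_at also reached the filter through deleted arrays, which favoured a difference in it. Probe set 1419873_s_at averaged 2.82 ± 0.36 in control and 5.63 ± 1.90 in deleted cells without IgM (SD, n = 3), where the deleted replicates read 6.49, 6.95 and 3.45. Replicate 3 of the deleted cells was therefore close to the highest control array, which read 3.24. The unstimulated log2 difference, 2.81 ± 0.72 (SE, n = 3 per group), had a limma adjusted p of 0.0891 and a blocked adjusted p of 0.0246. With IgM it averaged 2.65 ± 0.39 in control and 6.12 ± 0.30 in deleted cells (SD, n = 3), and rose by 3.47 ± 0.72 (SE, n = 3 per group; limma adjusted p = 0.0476). That call held in 2 of the 12 fits that left out 1 array, without deleted unstimulated replicate 2 or 3, and the adjusted p in the other 10 lay between 0.0597 and 0.198. Probe set 1423593_a_at was above 4 on enough control arrays to pass the filter without deleted ones. Without the block, limma did not call it in either condition. It had log2 differences of 2.001 ± 0.54 without and 1.95 ± 0.54 with IgM (SE, n = 3 per group, limma adjusted p = 0.109 and 0.138, blocked adjusted p = 0.0144 and 0.0210). Without deleted unstimulated replicate 3 the log2 differences without IgM were 3.90 for 1419873_s_at and 2.72 for 1423593_a_at (limma adjusted p = 0.000483 and 0.00654), and 1423593_a_at also passed with IgM (adjusted p = 0.0279).

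F13a1 encodes the A subunit of coagulation factor XIII, a transglutaminase that cross-links fibrin. It read 2.60, 4.95 and 2.60 in unstimulated control replicates 1, 2 and 3 and 8.05, 8.35 and 5.99 in unstimulated deleted ones. With IgM the control values were 2.60, 3.96 and 3.09 and the deleted values 7.17, 7.91 and 6.44. No deleted array overlapped the control arrays of its condition (over all tested probe sets 8.03% were higher and 9.12% lower without overlap in unstimulated cells, and 10.2% higher with IgM), and replicate 2 was again the highest of the control arrays. F13a1 rose by 4.08 ± 0.76 without IgM (16.9-fold; SE, n = 3 per group; limma adjusted p = 0.0187) and by 3.95 ± 0.76 with it (SE, n = 3 per group; limma adjusted p = 0.0344). With control arrays this close to the floor the size of the rise is not exact. The F13a1 probe set also reached the filter through deleted arrays, which favoured a rise. Without deleted IgM replicate 3 the differences were 4.08 and 4.32 (limma adjusted p = 0.0187 and 0.0473). The unstimulated call was lost without deleted unstimulated replicate 1 or 2 (limma adjusted p = 0.0927 and 0.0908) or control unstimulated replicate 1 or 3 (0.0947 and 0.0936). The IgM call was lost without deleted IgM replicate 1 or 2 (0.0724 and 0.112), control IgM replicate 1, 2 or 3 (0.152, 0.0694 and 0.157), deleted unstimulated replicate 1 (0.0516) or control unstimulated replicate 1 (0.0503).

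Lyz2 encodes lysozyme M, a bacteriolytic enzyme of macrophages, monocytes and neutrophils. It read 8.03, 8.52 and 6.34 in unstimulated control replicates 1, 2 and 3 and 11.13, 11.29 and 9.08 in deleted ones. With IgM the control values were 7.39, 8.26 and 5.93 and the deleted values 10.69, 10.91 and 7.15. Replicate 3 was the lowest array of each of the 4 groups, so the spread within groups was wide, and with IgM its deleted value fell inside the control range. Between same-numbered arrays the deleted value was higher by 3.09, 2.76 and 2.75 without IgM and by 3.30, 2.65 and 1.22 with it. The log2 differences of 2.87 ± 1.04 and 2.39 ± 1.04 (SE, n = 3 per group) missed the threshold in limma (adjusted p = 0.303 and 0.401) and passed it once the block was added (blocked adjusted p = 0.00163 and 0.00716). Without deleted IgM replicate 3 they were 2.87 and 3.61 (limma adjusted p = 0.0879 and 0.0972; blocked adjusted p = 2.59e-05 and 0.000401).

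Lyz1 encodes lysozyme P, a close relative, and probes of 1 gene can bind RNA of the other, which was not tested. The Lyz1 probe set with the highest mean, 1436996_x_at, read 10.08, 10.77 and 8.56 in unstimulated control and 12.89, 13.18 and 11.08 in unstimulated deleted replicates 1, 2 and 3. It followed the Lyz2 probe set over the 12 arrays at a Pearson correlation of 0.9986. Its log2 difference was 2.58 without IgM and 2.06 with it (limma adjusted p = 0.326 and 0.436; blocked adjusted p = 0.00255 and 0.0119).

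Vcam1 encodes a ligand of the integrin alpha 4 beta 1, made by activated endothelium and by macrophages of the spleen and bone marrow. Of its 3 probe sets 1 passed the filter, through deleted arrays alone, so that it was bound to read higher in them. It read 2.33, 3.17 and 2.25 in control and 5.51, 5.24 and 5.22 in deleted IgM replicates 1, 2 and 3, so the control arrays were at or below 3.17 and all deleted arrays above 5. With IgM 10.2% of all tested probe sets were higher in deleted cells without overlap. The log2 difference was 2.74 ± 0.52 (SE, n = 3 per group; limma adjusted p = 0.0336). Without IgM the values were 3.04, 3.91 and 2.83 in control and 5.02, 5.08 and 3.001 in deleted replicates, with deleted replicate 3 inside the control range (log2 difference 1.11 ± 0.52, SE, n = 3 per group; limma adjusted p = 0.551; blocked adjusted p = 0.165). Without deleted IgM replicate 3 the difference with IgM was 2.79 (limma adjusted p = 0.0680). It also lost its call without deleted IgM replicate 1 or 2 (0.0791 and 0.0828), control IgM replicate 1, 2 or 3 (0.141, 0.0649 and 0.169), or control unstimulated replicate 1 or 3 (0.0573 and 0.0528). The other 2 probe sets of Vcam1, 1415989_at and 1451314_a_at, stayed at 2.40 to 3.51 on all 12 arrays and showed no such split. They were below the filter, and 1451314_a_at repeated the value 2.70 on several arrays, so a split could hardly be measured with them.

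Chains of the integrins that bind VCAM-1 were measured too. Itga4, encoding integrin alpha 4, read 8.25, 8.41 and 8.51 in control and 9.86, 9.86 and 10.57 in deleted IgM replicates 1, 2 and 3. The deleted arrays were higher without overlap, as for 10.2% of all tested probe sets with IgM. The highest was deleted IgM replicate 3, the array that stood apart, and a fit without it is not given for this gene. Itga4 rose by 1.71 ± 0.24 with IgM (SE, n = 3 per group, limma adjusted p = 0.00982). Without IgM its log2 difference was 1.02 ± 0.24 (limma adjusted p = 0.0646, blocked adjusted p = 0.00618). Itgb7, which pairs with alpha 4 in the gut-homing integrin, had a log2 difference of 1.66 ± 0.38 with IgM (SE, n = 3 per group; limma adjusted p = 0.0679; blocked adjusted p = 0.00298). Itgb1, encoding the beta 1 chain, had log2 differences of 0.10 ± 0.29 without and 0.32 ± 0.29 with IgM (SE, n = 3 per group; limma adjusted p = 1 and 0.631; blocked adjusted p = 0.982 and 0.460).

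Adgre1, encoding a macrophage surface receptor of the adhesion family, was the 1 member that fell. In unstimulated cells it read 6.27, 5.61 and 6.16 in control and 4.58, 4.97 and 4.15 in deleted replicates 1, 2 and 3, with every deleted array below every control array. Over all tested probe sets 9.12% were lower in this way. Adgre1 fell by 1.45 ± 0.32 on the log2 scale (SE, n = 3 per group, limma adjusted p = 0.0437). With IgM both genotypes were low, at 3.69, 4.002 and 4.19 in control and 3.70, 4.70 and 4.23 in deleted cells, and the log2 difference was 0.25 ± 0.32 (SE, n = 3 per group; limma adjusted p = 0.738). Control cells thus lost Adgre1 signal with IgM, by 2.06 ± 0.32 (SE, n = 3 per group; limma adjusted p = 0.00148), with all 3 IgM arrays below all 3 unstimulated ones, as for 21.9% of all tested probe sets. In deleted cells the log2 difference with IgM was -0.36 ± 0.32 (SE, n = 3 per group; limma adjusted p = 0.474). The interaction (the IgM genotype difference less the unstimulated one) was 1.70 ± 0.45 (limma adjusted p = 0.589, unadjusted p = 0.00298), so a difference between the genotypes in this response was not shown. The genotype call without IgM was lost in 9 of the 12 fits without 1 array (adjusted p 0.0557 to 0.183) and held without any of the deleted IgM arrays (0.0346 without replicate 3), whereas the IgM call in control cells held in all 12 (adjusted p 0.00117 to 0.00908) and was lost when the replicate 1 arrays of all 4 groups were left out together (adjusted p = 0.0527).

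Adgre5, which encodes CD97, a leukocyte surface protein of the same adhesion receptor family as ADGRE1, differed in the opposite direction. It read 9.31, 9.48 and 9.09 in control and 10.98, 10.79 and 10.79 in deleted unstimulated replicates 1, 2 and 3. It rose by 1.56 ± 0.27 without IgM and by 1.33 ± 0.27 with it (SE, n = 3 per group, limma adjusted p = 0.0115 and 0.0445). With IgM the deleted replicates 1, 2 and 3 read 10.33, 10.35 and 11.31. The highest was again the array that stood apart, and a fit without it is not given for this gene.

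Cd68 encodes a lysosomal membrane glycoprotein used as a marker of phagocytes. It read 6.10, 6.41 and 5.34 in control and 6.96, 7.25 and 6.13 in deleted unstimulated replicates 1, 2 and 3. With IgM it read 6.17, 6.45 and 6.25 in control and 6.42, 7.04 and 4.66 in deleted cells, and the genotypes overlapped in both conditions. Its log2 difference was 0.83 ± 0.54 without IgM and -0.25 ± 0.54 with it (SE, n = 3 per group; limma adjusted p = 0.840 and 0.855). Deleted IgM replicate 3 set the sign with IgM, and without it the differences were 0.83 and 0.44 (limma adjusted p = 0.297 and 0.844; blocked adjusted p = 0.0268 and 0.597).

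C1qa, C1qb and C1qc encode the chains of C1q, the recognition part of the classical complement pathway, which macrophages of the spleen make. All 5 of their probe sets were at or near the floor in every group. C1qa and C1qc lay within 0.1 of the floor on all 12 arrays, as did 2 of the 3 probe sets of C1qb. The remaining one, 1434366_x_at, read at most 2.91, in deleted unstimulated replicate 1. Of the 60 values of the 5 probe sets, 56 lay within 0.1 of 2.23, and no difference between groups was measurable at this floor.

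**Figure D2:**
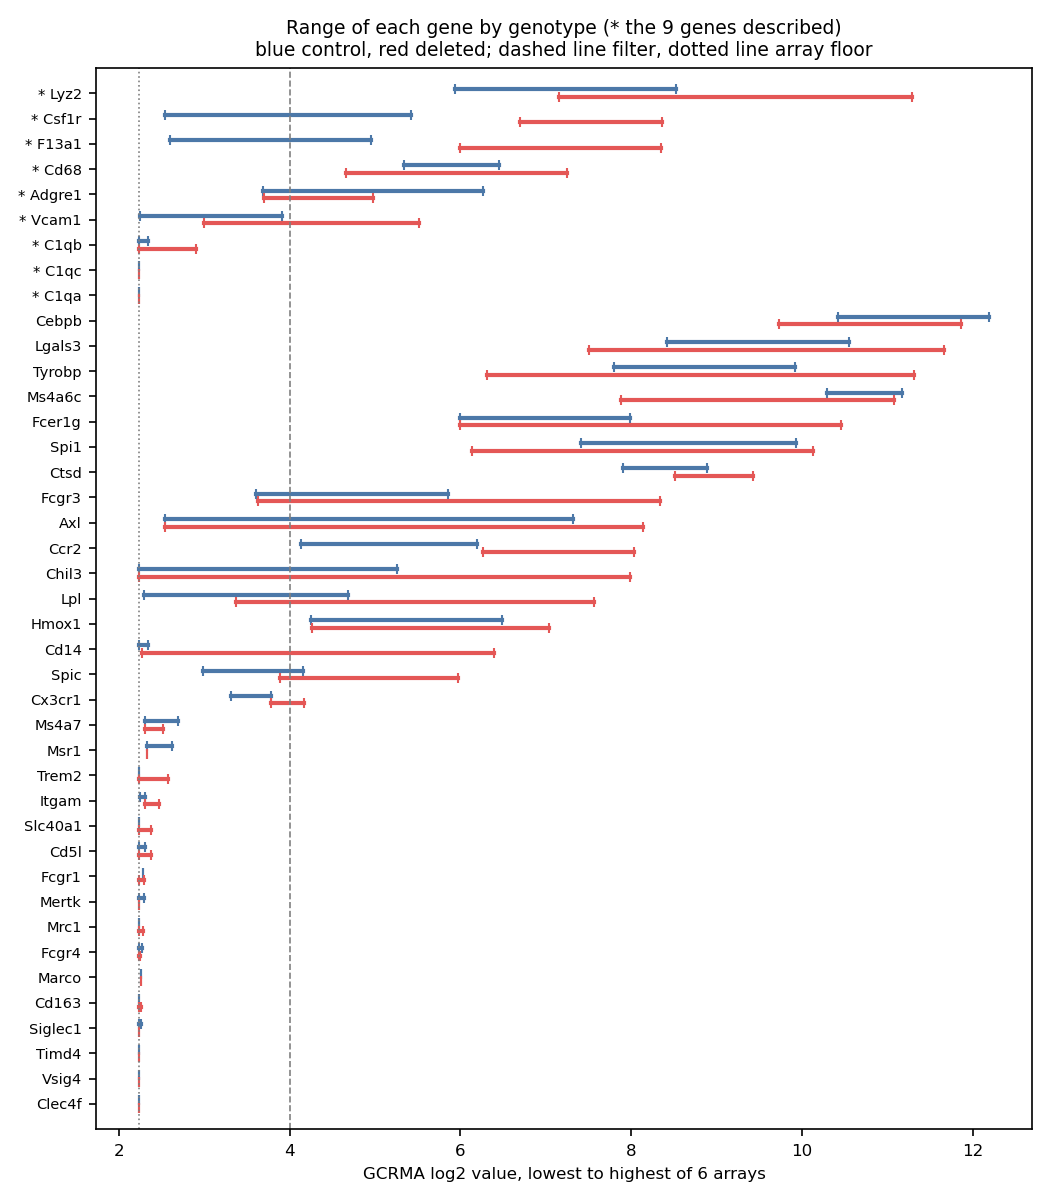
Lowest to highest GCRMA log2 value (horizontal axis) over the 6 control arrays (blue) and the 6 deleted arrays (red) for the 9 genes, marked with an asterisk, and the 32 other macrophage and monocyte genes on the array, each by its probe set with the highest mean. The dotted line is the floor of 2.23 and the dashed line the filter at 4. Rows are not comparable with each other in level, and the 3 C1q genes and 16 of the 32 others stay at or left of the filter line on all arrays.

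The bases before the start of transcription are shown for 4 members whose values differed in kind: F13a1 (higher in deleted cells), Lyz2 (higher with the replicate block), Cd68 (no call) and C1qc (floor). Such sequences from RefSeq, build GRCm38.p6, were searched for C1qb, C1qc, Cd68, F13a1 and Lyz2. Those of Csf1r, Adgre1, Vcam1 and C1qa were not searched. Each run holds the 250 bases before the annotated start, 5′ to 3′ on the strand of the gene, and capitals mark matches to the motifs searched.
F13a1, chr13:37050245-37050494, minus strand: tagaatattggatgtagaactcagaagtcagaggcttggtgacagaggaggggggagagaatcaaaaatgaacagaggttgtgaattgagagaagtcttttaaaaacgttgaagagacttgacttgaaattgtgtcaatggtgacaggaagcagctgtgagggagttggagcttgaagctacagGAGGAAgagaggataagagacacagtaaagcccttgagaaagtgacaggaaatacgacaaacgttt
Lyz2, chr10:117282273-117282522, minus strand: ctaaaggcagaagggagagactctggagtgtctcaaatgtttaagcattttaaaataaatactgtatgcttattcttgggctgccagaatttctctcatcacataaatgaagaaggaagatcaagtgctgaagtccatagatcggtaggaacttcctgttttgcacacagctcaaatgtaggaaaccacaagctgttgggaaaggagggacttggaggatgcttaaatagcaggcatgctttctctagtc
Cd68, chr11:69666171-69666420, minus strand: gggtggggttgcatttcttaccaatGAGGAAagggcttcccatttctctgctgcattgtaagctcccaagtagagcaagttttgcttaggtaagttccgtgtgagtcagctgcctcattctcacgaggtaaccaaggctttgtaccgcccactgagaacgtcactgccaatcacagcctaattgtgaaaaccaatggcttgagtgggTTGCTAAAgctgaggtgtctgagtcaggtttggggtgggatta
C1qc, chr4:136892915-136893164, minus strand: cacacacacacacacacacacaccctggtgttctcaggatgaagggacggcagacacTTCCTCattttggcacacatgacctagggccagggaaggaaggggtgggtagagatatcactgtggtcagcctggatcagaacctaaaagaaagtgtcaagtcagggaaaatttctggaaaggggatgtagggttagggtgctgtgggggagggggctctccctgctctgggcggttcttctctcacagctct

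Motifs were searched on both strands as a forkhead core, TGTTTAC, a PU.1 core, GAGGAA, and a C/EBP half-site pair, TTGCNNAA. PU.1 and C/EBP factors are regulators of myeloid genes, and Foxp1 belongs to the forkhead family. The forkhead letters were in none of the 6 windows of these 5 genes, F13a1 having a second annotated start, and in 3.17% of all 32851 windows of this length. The PU.1 letters were present once in each of C1qb, C1qc, Cd68 and 1 of the 2 windows of F13a1, against 23.3% of all windows, with no match in Lyz2. The C/EBP letters were found in Cd68, against 9.56% of all windows. No matches overlapped. These letters describe the windows and say nothing of binding in these cells.

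Counted together, the unstimulated genotype comparison called 3 of the 8 tested probe sets (Csf1r and F13a1 higher, Adgre1 lower). Over all 19187 probe sets tested limma called 2.03%, with 1.47% higher and 0.552% lower. At an unadjusted p under 0.05 there were 6 of 8, against 9.74% of all. With the replicate block 6 of 8 were called (all 3 of Csf1r, F13a1 and Lyz2 higher, Adgre1 lower), against 5.36% of all. The median log2 difference was 2.41 over the 8 and -0.04 over all tested probe sets. The Csf1r probe set and F13a1, called higher without IgM, reached the filter through deleted arrays. Nothing is therefore read from these counts or this median. With IgM 4 of 8 were called, all higher (Csf1r with 2 probe sets, F13a1 and Vcam1), where 1.06% of all were called higher and 1.19% in either direction. These 4 are the probe sets that reached the filter through deleted arrays, so nothing is read from their number. The block gave 6 (all 3 of Csf1r, F13a1, Vcam1 and Lyz2), against 4.80%. The median log2 difference with IgM was 2.56 over the 8 and 0.05 over all.

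A fit to the 6 arrays of 1 condition alone called 0 of 8 in either condition (limma; 6 at an unadjusted p under 0.05 without IgM and 5 with it), as did the fit to all 45037 probe sets without a filter (6 and 5 at an unadjusted p under 0.05).

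**Figure D3:**
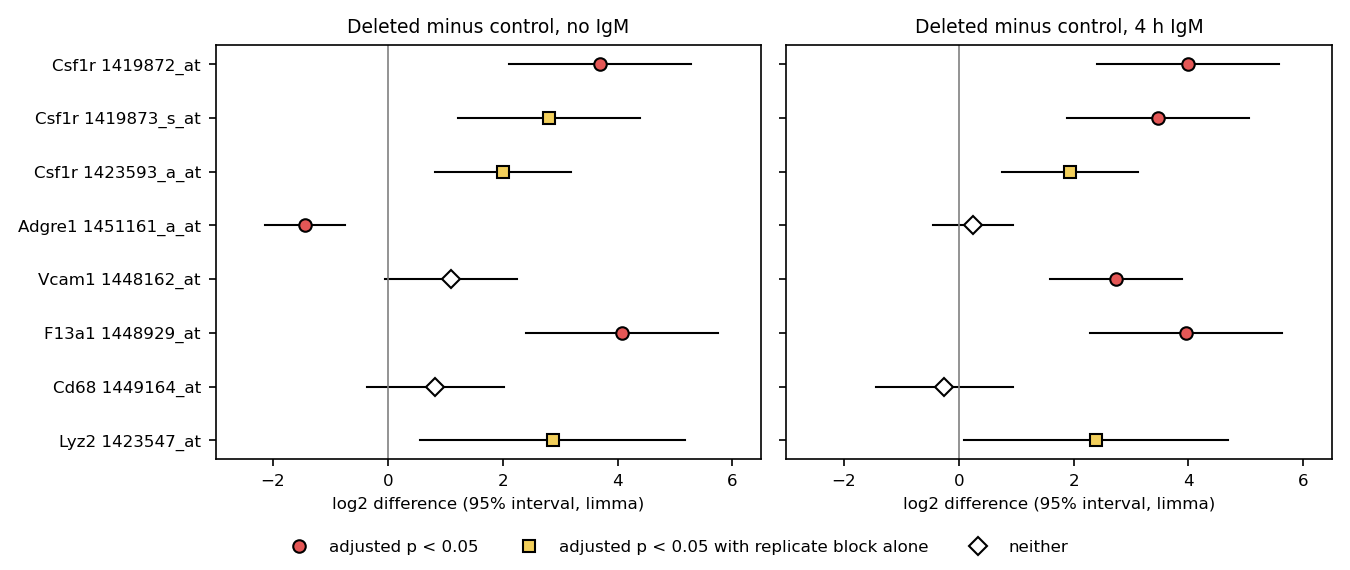
Log2 difference, deleted minus control (horizontal axis), of the 8 tested probe sets without IgM (left) and after 4 h of IgM (right), with the 95% interval from limma as a line (n = 3 per group). Red circles passed an adjusted p of 0.05, yellow squares passed with the replicate block alone, and white diamonds passed neither. Adgre1 is at -1.45 without IgM and 0.25 with it, while the 3 probe sets of Csf1r and that of F13a1 are between 1.95 and 4.08 in both conditions.

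The response to IgM was compared within each genotype. In control cells 1 of 8 probe sets was called, the fall of Adgre1, a share near that of all probe sets tested (18.2%, with 9.91% lower). In deleted cells it called 0 of 8 (limma; 0 at an unadjusted p under 0.05), against 17.0% of all and 30.6% at an unadjusted p under 0.05. The log2 differences with IgM ranged from -0.91 (Lyz2) to 0.96 (Vcam1) in deleted cells. Vcam1 read higher with IgM than without in all 3 same-numbered pairs of deleted cells, by 0.49, 0.16 and 2.22, and lower in all 3 of control cells, by 0.70, 0.74 and 0.59 (replicates 1, 2 and 3), although neither difference passed and the deleted groups did not overlap, as for 17.8% of all probe sets (limma adjusted p = 0.244 and 0.444). The interaction called 0 of 8 probe sets (limma; 2 at an unadjusted p under 0.05, Adgre1 and Vcam1), against 0.0990% of all and 3.63% at an unadjusted p under 0.05. The IgM and genotype comparisons share arrays, so they are not independent.

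Other genes of macrophages and monocytes were examined as a list of 34, of which 32 were on the array and 15 passed the filter. Spic, a transcription factor of red pulp macrophages, was the 1 call of 15 in unstimulated cells, against 2.45% of 9293 genes. It read 4.15, 3.93 and 4.08 in control and 5.42, 5.28 and 5.98 in deleted replicates 1, 2 and 3 and rose by 1.51 ± 0.32 (SE, n = 3 per group; limma adjusted p = 0.0396). With the replicate block 5 were called, all higher, against 6.22% of genes: Spic, the monocyte chemokine receptor gene Ccr2 (log2 difference 1.86), the lipopolysaccharide co-receptor gene Cd14 (2.87), and the Fc receptor genes Fcgr3 (2.71) and Fcer1g (2.30). With IgM none of 15 passed in limma (2 at an unadjusted p under 0.05, Ccr2 and Cd14), against 1.50% of genes. The log2 difference of Ccr2 there was 2.40 ± 0.57 (SE, n = 3 per group; limma adjusted p = 0.0826), and the block, which called 5.64% of genes, called Ccr2 and the lipase gene Lpl (blocked adjusted p = 0.00475 and 0.0418). The median log2 difference of the 15 was 1.31 without IgM and 0.54 with it. Cd14 was at or below 4 on all control arrays, and Chil3 and Lpl were above 4 on fewer than 3. These genes reached the filter through deleted arrays, which favoured a difference in them, so nothing is read from these genotype counts and medians. The same filter applied to every list below. For the genotype counts at an unadjusted p under 0.05, the share over all tested probe sets is given without IgM alone (9.74%). Such counts with IgM, here and below, have no share beside them, so nothing is read from them.

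Several markers of resident tissue macrophages were at the floor. Of the 32 genes on the array, 16 lay at or below 4 on all 12 arrays, and 10 of these were within 0.1 of the floor throughout: Cd163, Clec4f, Fcgr1, Fcgr4, Marco, Mertk, Mrc1, Siglec1, Timd4 and Vsig4. They encode scavenger, lectin, Fc and phagocytic receptors. Cx3cr1, a chemokine receptor gene of monocytes, exceeded 4 on 2 arrays of deleted cells and reached 4.17.

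IgM moved further genes of that list. Axl, a receptor that binds dying cells through a bridging protein, rose by 3.94 ± 0.50 in control and 4.28 ± 0.50 in deleted cells (SE, n = 3 per group, limma adjusted p = 0.000537 and 0.000433). It was above 4 on fewer than 3 unstimulated arrays (lowest 2.54) and reached the filter through IgM arrays (6.77 to 8.14). The filter thus favoured a rise in Axl. Hmox1, encoding the haem-degrading enzyme heme oxygenase 1, rose by 1.82 ± 0.37 and 1.85 ± 0.37 (limma adjusted p = 0.00680 and 0.00685). Cebpb, a C/EBP family transcription factor gene, rose by 1.53 ± 0.40 in control cells (limma adjusted p = 0.0233), and its log2 difference in deleted cells was 1.19 (adjusted p = 0.0678; blocked adjusted p = 0.0274). Spic fell by 1.43 ± 0.32 in deleted cells (SE, n = 3 per group; limma adjusted p = 0.0118). That made 3 higher and 0 lower of 15 in control cells and 2 higher and 1 lower in deleted cells, against 19.7% and 18.1% of genes called in either direction. With the block the counts were 3 higher and 1 lower in control and 3 higher and 4 lower in deleted cells, against 34.7% and 35.8% of genes. Axl is among the higher genes in each of these counts, so nothing is read from them. Spi1, encoding the myeloid and B cell transcription factor PU.1, was called lower with the block in both genotypes (log2 differences -1.55 and -1.79; limma adjusted p = 0.139 and 0.0912; blocked adjusted p = 0.0150 and 0.00792). In deleted cells the block also called lower Tyrobp, a signalling adaptor gene (-1.76), and Fcer1g (-1.39; limma adjusted p = 0.219 and 0.329; blocked adjusted p = 0.0346 and 0.0178).

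Of ligands, partners and relatives of the 9 genes, 22 were listed, 18 were on the array and 11 passed. By genotype limma called 1 of 11 without IgM (Adgre5) and 2 with it (Itga4 and Adgre5), against 2.45% and 1.50% of genes. With the block 3 and 4 were called, against 6.22% and 5.64% of genes: Adgre5, Itga4 and Lyz1 in both, and Itgb7 with IgM. Csf1, the ligand of CSF1R, had log2 differences of 0.10 and 0.05 between genotypes (limma adjusted p = 1 and 0.969), and Il34, its other ligand, lay at the floor. With IgM, Csf1 had log2 differences of 1.10 in control and 1.05 in deleted cells (limma adjusted p = 0.130 and 0.149; blocked adjusted p = 0.0167 and 0.0209), and Itgb1 one of 0.92 in deleted cells (limma adjusted p = 0.0513; blocked adjusted p = 0.0319). IgM lowered Itga4 and Itgb7 in both genotypes, by 2.21 and 2.94 in control and by 1.52 and 1.86 in deleted cells (limma adjusted p = 0.000267, 0.000590, 0.00210 and 0.00716).

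Lists of other blood cells were measured on the same arrays. Of the 11 neutrophil genes that passed, 11 had a log2 difference above 0 in each condition, with medians of 2.81 and 1.84. Limma called 0 of them (4 and 3 at an unadjusted p under 0.05, against 9.74% of all probe sets without IgM). With the block 4 and 2 were called, against 6.22% and 5.64% of genes. Ltf and Csf3r, at or below 4 on all control arrays, passed the filter through deleted arrays alone. Camp and Lcn2 were above 4 on fewer than 3 control arrays. The filter favoured a difference in these genes, so the counts and medians of this list support nothing. The linear level summed over the 14 genes of that list on the array was 316 to 2958 on control arrays and 1847 to 25451 on deleted arrays of either condition. Mpo, encoding myeloperoxidase, had log2 differences of 3.20 and 3.36 (limma adjusted p = 0.0674 and 0.0703; blocked adjusted p = 0.00266 and 0.00410), while Cxcr2 lay at the floor and Mmp8 and Mmp9 at or below 4. Of 6 progenitor, mast cell and basophil genes, Cd34, a surface protein gene of blood progenitors, and the mast cell and basophil receptor gene Ms4a2 rose without IgM (3.67 and 2.52), and Cd34, the stem cell factor receptor gene Kit and Ms4a2 with it (3.64, 2.48 and 2.55). These 2 and 3 calls of 6 stand beside 2.45% and 1.50% of genes. All 6 had an unadjusted p under 0.05 in each condition, against 9.74% of all tested probe sets without IgM. The block called 4 and 3, against 6.22% and 5.64% of genes, and lost none of the calls named. It added the transcription factor gene Gata2 and the mast cell protease gene Cpa3 without IgM (1.84 and 2.52, blocked adjusted p = 0.0452 and 0.0296). Cd34, Ms4a2 and Meis1 were above 4 on fewer than 3 control arrays and reached the filter through deleted arrays. The filter favoured a difference in these genes, so nothing is read from the number of calls. Mecom was the 1 gene of that list at the floor, and the level summed over its 7 genes on the array was 110 to 304 on control and 452 to 1435 on deleted arrays.

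Natural killer cell genes gave 1 call of 7 without IgM, the receptor gene Klrk1 (1.56), against 2.45% of genes, and 0 of 7 with it in limma (2 at an unadjusted p under 0.05 in each condition). The block called 2 and 3, against 6.22% and 5.64% of genes. Klrk1 and the receptor gene Klrd1 were called in both conditions (Klrd1 1.19 and 0.99, blocked adjusted p = 0.00604 and 0.0193). The transcription factor gene Eomes was called with IgM (1.23, blocked adjusted p = 0.0478). The level summed over the 8 genes on the array was 236 to 1834 on control and 379 to 2898 on deleted arrays. The 6 dendritic cell, 2 T cell and 2 erythroid genes that passed gave 0 genotype calls in limma. Summed over the genes on the array, the levels were 6724 to 9461 for 10 dendritic cell genes (Batf3 at the floor) and 61.9 to 451 for 8 T cell genes (Cd4 and Thy1 at the floor) on the 12 arrays. Most of the dendritic cell sum was Ccr7, at 12.17 to 13.01, while Siglech, at 4.32 to 7.52, and Cd209a, at 2.23 to 5.57, added little. That sum therefore mainly describes Ccr7. For 5 erythroid genes (Hba-a1 at the floor) the summed levels were 81.9 to 124 on control and 122 to 2161 on deleted arrays. At an unadjusted p under 0.05 there were 5 dendritic cell, 0 T cell and 2 erythroid genes without IgM and 1, 0 and 1 with it. Without IgM 9.74% of all tested probe sets lay under that p. With the block 3, 0 and 1 were called without IgM and 1, 0 and 0 with it, against 6.22% and 5.64% of genes. Cd209a, at or below 4 on all control arrays, reached the filter through deleted arrays. The 9 pan-B genes gave 0 genotype calls in limma as well (2 and 1 at an unadjusted p under 0.05; with the block 1 lower without IgM), with medians of -0.07 in both conditions. The part of these other cell types in the values of the 9 genes was not tested.

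**Figure D4:**
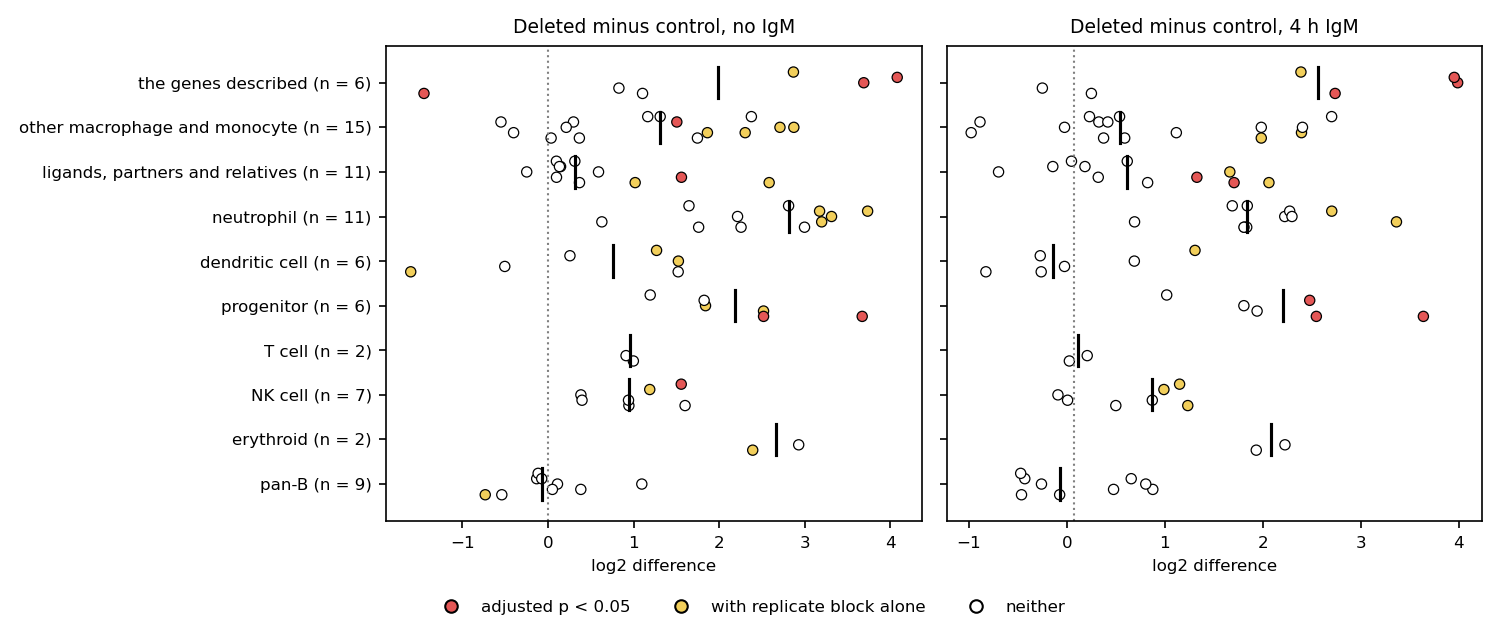
Log2 difference, deleted minus control (horizontal axis), of each gene that passed the filter in 10 lists, without IgM (left) and after 4 h of IgM (right), 1 probe set per gene. The black bar is the median of a list and the dotted line that of all 9293 genes. Red points passed an adjusted p of 0.05 and yellow points passed with the replicate block alone. The medians of the 9 pan-B genes are at -0.07, against 2.81 and 1.84 for the 11 neutrophil genes. Some genes passed the filter through deleted arrays, which favoured a higher difference in them.

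The genes most alike over the 12 arrays were named by Pearson correlation, as a description in which genotype, stimulation and replicate number are shared by all points. Csf1r was most like Igsf6 (0.973), Lcp2 (0.973) and Iqgap2 (0.972), and F13a1 most like Emilin2 (0.986), Igsf6 (0.982) and Csf1r itself (0.968). Lyz2 was most like Lyz1, then the C-type lectin gene Clec4d (0.969) and the neutrophil protease gene Prtn3 (0.965). Vcam1 was most like the hexokinase gene Hk3 (0.957), Alas1 (0.934) and Pxylp1 (0.930). Adgre1 was most like the kinase gene Camk1d (0.916), Tpm4 (0.915) and Noxred1 (0.900), and Cd68 most like Marchf5 (0.928), Adssl1 (0.918) and the lysosomal protease gene Ctsl (0.918).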

How the data were processed

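RNA levels were deposited as 1 table of log2 values of 45101 probe sets on 12 arrays. The authors made these log2 values with GCRMA, per the submitters' processing notes; version and settings are not given in the sources used here. That the scale is log2 was judged by range (floor 2.23, highest 15.79, array medians 2.45 to 2.49). Of the probe sets, 64 were controls, and the platform annotation paired 34945 of the rest with a single gene, 932 with several and 9160 with no gene. RefSeq's GRCm38.p6 table gave current symbols for 34741 by gene identifier.

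Probe sets above 4 on at least 3 arrays (19187) entered limma 3.58.1 under R 4.3.3 (empirical Bayes moderated linear models), with 1 mean per group, 1 shared spread and no block, and p-values were adjusted by Benjamini-Hochberg over the 19187 at a threshold of 0.05, two-sided, in 5 comparisons. Errors of log2 differences are standard errors of that model. Lists used 1 probe set per gene, the passing one with the highest mean, with p-values adjusted over all probe sets. For the summed linear level of a list, 2 to the power of each value was added over all its genes on the array.

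Replicate numbers recur in every group in the labels. Deviations from group means correlated at 0.24 to 0.84 between same-numbered arrays in all 12 pairs, against -0.70 to 0.22 between differently numbered ones. Arrays of 1 number were treated as paired in the blocked fits alone, so the main p-values leave this shared variation in the spread. The model without the block stayed the main one, and blocked values are printed where they change a call of a member, of a list in the genotype comparisons, or of the macrophage and ligand lists with IgM.

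The members, lists, tests and alternatives were chosen with earlier results of these data known. Named were every probe set of the 9 genes, per comparison up to 4 listed macrophage genes and up to 4 ligands, partners and relatives past the threshold (or up to 2 of the smallest p), up to 2 genes of each other cell type per genotype comparison, and the 3 most alike genes of each member, and any further gene named was chosen after its values were seen. The model was tested on simulated data. Alternatives covered the block, filter, probe set choice, variance model, normalization and arrays left out.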

Additional observations from a re-analysis of the deposited data

How the results depend on the processing

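In the genotype comparison without IgM, 3 of the 8 probe sets were called, against 2.03% of all tested. The replicate block called 6, against 5.36% of all tested. The block together with leaving out deleted IgM replicate 3, an alternative chosen after seeing the data, called 7. Testing all 45037 probe sets without a filter called 0, and fitting only the groups compared called 0 (each 6 at an unadjusted p under 0.05), while leaving out arrays gave 0 to 4. With IgM 4 were called, against 1.19% of all tested. There were 0 without the filter and 0 with only the groups compared (each 5 at an unadjusted p under 0.05), and 0 to 5 when arrays were left out. Without deleted IgM replicate 3 the genotype comparisons called 759 and 259 of all 19045 probe sets then tested, without and with IgM. Shares over all probe sets are not given for the other fits, so their counts are descriptions. The genotype counts with such a share are descriptions too, because probe sets called higher reached the filter through deleted arrays. For IgM in control cells the count of the 8 was 1, or 0 to 1 with arrays left out and 2 with the block and without deleted IgM replicate 3. The count was 0 for IgM in deleted cells and for the interaction under every alternative run. The fit without a filter held more tests, and the smaller fits held fewer arrays. The cause of these shifts was not tested.

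Signs turned only for differences that were not called, in 52 of the 942 recomputed values. With the block and without deleted IgM replicate 3, Cd68 with IgM was 0.22, the Csf1r 1419872_at interaction -0.015 and the Lyz2 interaction 0.076. With arrays left out, Cd68 with IgM ranged from -0.75 to 0.44. For IgM in control cells the ranges were -0.57 to 0.87 (Csf1r 1419872_at), -0.38 to 0.044 (1419873_s_at), -0.0099 to 0.52 (1423593_a_at), -1.08 to 0.19 (Lyz2) and -0.56 to 0.61 (F13a1). For IgM in deleted cells they were -0.12 to 0.79, -0.60 to 1.16, -0.56 to 0.57, -1.62 to 0.30 and -1.03 to 0.15 in the same order, and for the interaction -0.48 to 0.96, -0.43 to 1.32, -0.77 to 0.36, -1.19 to 0.74 and -0.91 to 0.32. Near the floor the size of a difference is limited by the background correction, and 3 arrays per group limit the precision.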
